A study of Caenorhabditis elegans with 45 samples.

Results

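lsy-6 is a miRNA gene of Caenorhabditis elegans, taken here by its gene name as 1 of the 257 miRNA genes in a table of small RNA reads from 45 libraries. It was described by its reads in every library, by its level in each of 15 genotypes and by the spread between libraries. It had at least 1 read in all 45 libraries and passed the filter on low counts, so it was among the 130 miRNAs tested.

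Every library came from a synchronised population of whole animals at the mid L4 larval stage, cultured at 20 °C for 45 hours after feeding, and each genotype had 3 libraries, named A, B and C. The labels do not say that the 3 came from separate cultures, so p-values measure the spread between these libraries, which may be technical. The study changed single bases of let-7a outside its seed, at positions 9 to 22 counted from the 5′ end. The mutants without mnDp1 in their labels were U9G (strain VT3835, allele ma453), A10U (VT3836, ma454), A17U (VT3827, ma450), U18A (VT3797, ma435), A19U (VT3798, ma436), G20C (VT3829, ma452), U21A (VT3844, ma456) and U22A (VT3799, ma437). The mutants labelled with mnDp1, an X chromosome duplication carried on chromosome V and marked with umnIs25, were G11U (VT3793, ma431), G12U (VT3825, ma448), U13A (VT3794, ma432), U14A (VT3795, ma433), G15A (VT3796, ma434) and U16G (VT3826, ma449). Wild type was strain VT1367. All of these strains, wild type included, carry maIs105 on chromosome V, a col-19::gfp reporter in worm genetics. Each mutation was represented by a single strain. The 6 mnDp1 strains are labelled +/+ for it. Libraries were made from total RNA, and a table of miRNA genes has no markers with which the tissue or the stage could be checked. One library, U9G replicate B, stood apart from the rest (r = 0.867 with the median of the others over log2 CPM across miRNAs, which are not independent replicates).

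lsy-6 is known as a switch of neuronal identity. The ASE taste neurons form a left and right pair that look alike but express different chemoreceptor genes, and lsy-6 is known from the left cell, ASEL. There it represses the homeobox gene cog-1, which lets the cell take the left fate with die-1 and lim-6 active, while ASER, which lacks lsy-6, keeps cog-1. Since its known expression is confined to very few neurons, reads of lsy-6 in whole larvae are diluted by the RNA of all other cells. In such samples, fewer cells that make a miRNA and less of it per cell cannot be told apart. The genes of this switch are protein-coding and are not in a miRNA table.

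In the WBcel235 annotation, the lsy-6 gene (WBGene00003088) lies on chromosome V at 10647232 to 10647304 on the plus strand, a precursor of 73 bases. Its annotated mature products are 21 bases at 10647237 to 10647257 on the 5′ arm and 22 bases at 10647280 to 10647301 on the 3′ arm. The table gives 1 count for the gene, so reads of the arms cannot be separated. The precursor overlaps 0 other annotated genes on either strand. Its nearest protein-coding neighbours are C32C4.3, on the minus strand and 89 bases away, and C32C4.16, on the plus strand and 257 bases away.

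lsy-6 was rare but was read in every library. Over the 45 libraries it had between 41 and 143 reads, with a median of 87, and 3913 reads in all out of 95663284 miRNA reads, a share of 0.00409%. As counts per 1000000 miRNA counts (CPM), its level lay between 25.95 and 60.8, with a mean of 41.0 ± 8.47 (SD over the 45 libraries). The miRNA counts summed to between 1009758 and 3574420 per library, so that a count of 0 would have allowed a level of up to 0.839 to 2.97 CPM. All values of lsy-6 lay far above this limit. By mean CPM it was number 95 of the 257 listed genes, of which 61 had 0 reads in all libraries. In single libraries its rank stayed between 87.5 and 101. The most abundant miRNA averaged 168100 CPM, and lsy-6 stood at 0.0244% of that.

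The levels in the mutants at positions 9 to 12 are given first, for replicates A, B and C in that order. U9G had 31.6, 35.1 and 47.5 CPM, from 53, 120 and 111 reads. A10U had 30.7, 33.1 and 47.2 CPM, from 41, 71 and 117 reads. In both genotypes replicate C was the highest and the other libraries were close together. G11U had 30.1, 38.7 and 56.6 CPM, from 70, 83 and 111 reads, the widest spread of any genotype. G12U had 26.2, 36.2 and 37.5 CPM, from 55, 77 and 71 reads. Its mean of 33.3 ± 6.17 CPM (SD, n = 3) was the lowest of the 15 genotypes.

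The mutants at positions 13 to 16 had their high and low libraries under different letters. U13A had 47.9, 35.6 and 49.9 CPM, from 108, 89 and 90 reads. U14A had 49.4, 30.4 and 48.6 CPM, from 90, 77 and 103 reads. In these strains replicate B was the lowest. G15A had 41.6, 60.8 and 51.3 CPM, from 42, 138 and 123 reads, and its replicate B was the highest of all 45 libraries. The mean of G15A, 51.2 ± 9.61 CPM (SD, n = 3), was also the highest of any genotype. U16G had 30.9, 36.3 and 46.2 CPM, from 69, 89 and 89 reads.

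Among the mutants at positions 17 to 22, A19U and G20C had the highest and the lowest mean. A17U had 37.1, 42.4 and 47.3 CPM, from 48, 97 and 114 reads. U18A had 41.3, 37.1 and 59.0 CPM, from 67, 92 and 130 reads. A19U had 51.1, 40.4 and 50.0 CPM, from 112, 105 and 78 reads. All libraries of A19U lay above the median of the 45, which was 40.01 CPM. G20C had 27.5, 37.6 and 37.7 CPM, from 59, 76 and 79 reads. U21A had 36.5, 43.9 and 46.6 CPM, from 98, 87 and 81 reads. U22A had 40.0, 39.7 and 38.5 CPM, from 143, 96 and 70 reads, the closest agreement of any genotype in CPM. After TMM normalisation its SD was 2.08 CPM, and that of U21A, 2.03 CPM, was lower. Wild type had 25.95, 46.9 and 40.9 CPM, from 56, 84 and 54 reads, with a mean of 37.9 ± 10.8 CPM (SD, n = 3). Its replicate A was the lowest of all 45 libraries, so the wild-type range is wide and no mutant library lay below it.

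**Figure D1:**
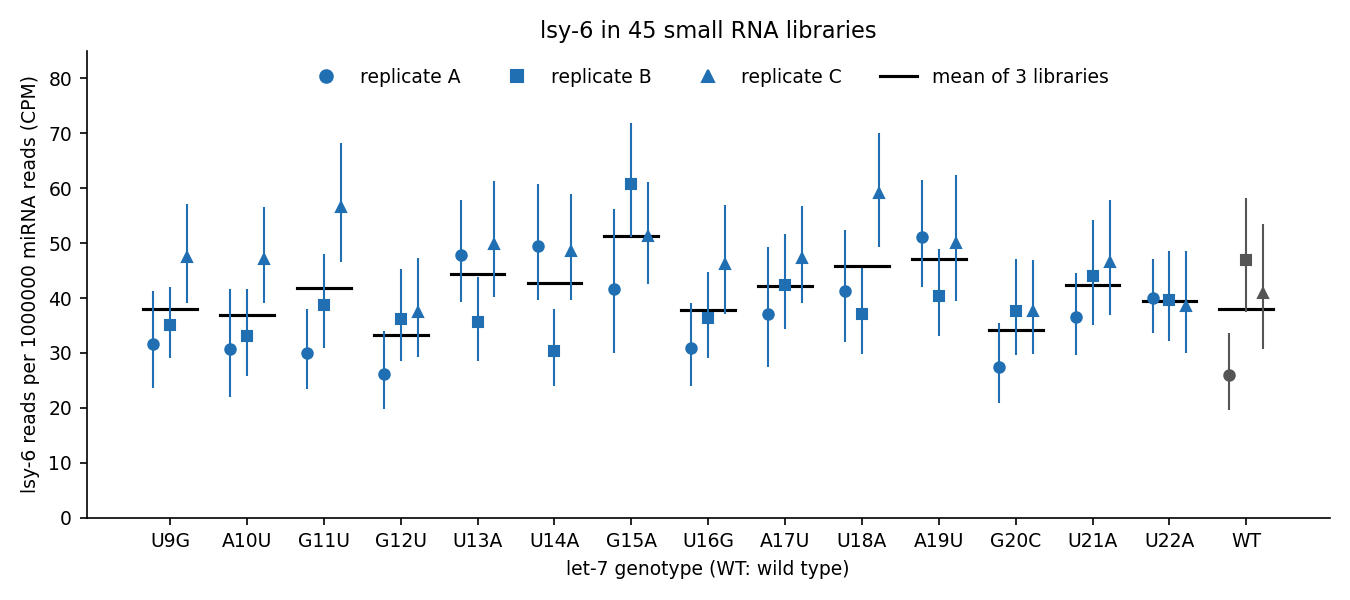
Level of lsy-6 in each library, as CPM on the vertical axis, by let-7 genotype on the horizontal axis, with mutants in the order of the changed position and wild type at the right. Points are libraries, marked by replicate letter, bars are exact Poisson 95% intervals of the count and black lines are means of 3 libraries. Every mutant has at least 1 library within the wild-type range, and the libraries run between 25.95 CPM in wild type replicate A and 60.8 CPM in G15A replicate B.

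How much of this spread counting alone could give was examined next. The exact Poisson 95% interval of a library's count had a half-width of between 16.8% and 31.95% of the count, with a median of 21.6%. These intervals cover counting error only, since reads without molecular identifiers are not independent molecules. The intervals of 34 libraries held the pooled level of 40.9 CPM. Another 5 libraries lay wholly above it, which were G11U C, G15A B, G15A C, U18A C and A19U A, and 6 lay wholly below it, which were G11U A, G12U A, U14A B, U16G A, G20C A and wild type A. G11U had libraries on both sides, so these departures did not follow the genotype there, while G15A had replicates B and C above. All libraries below except U14A B were replicates A, and among those above only A19U A was a replicate A.

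**Figure D2:**
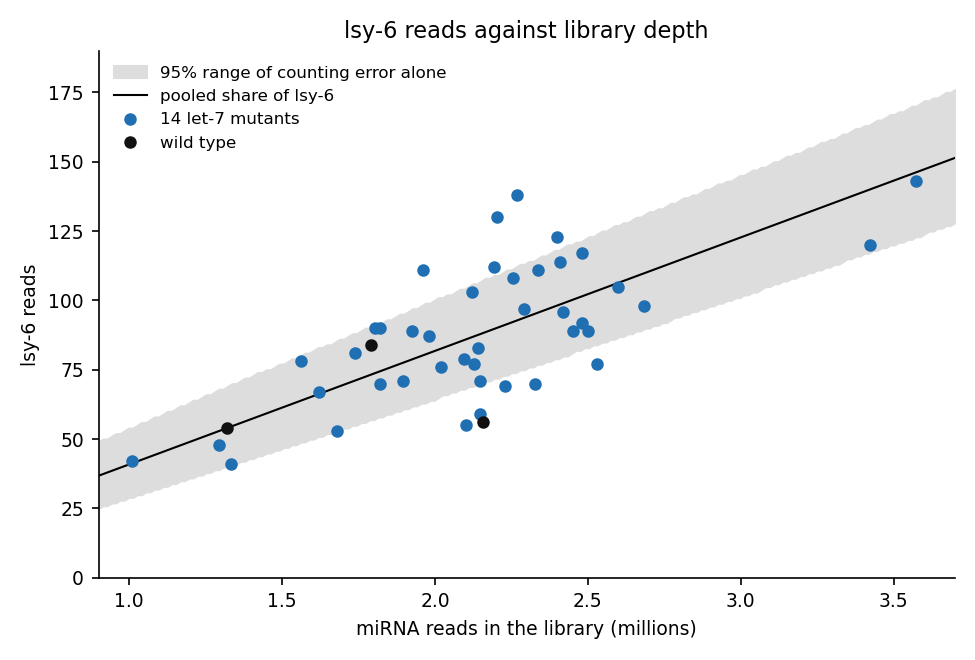
Reads of lsy-6 on the vertical axis against miRNA reads of the library on the horizontal axis, with the 14 mutants in blue and wild type in black. The line is the pooled share of lsy-6 and the grey band the 95% range of counting error alone. Reads ran between 41 and 143 per library, and libraries outside the band were found on both sides of the line.

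Within genotypes, the variance of lsy-6 counts was 3.65 times that of counting alone (Pearson dispersion index, 30 degrees of freedom), and 2.84 times after TMM normalisation. The coefficient of variation (CV) between libraries of a genotype was 20.6%, where counting error alone gives 11.2%. The index was lower than that of lsy-6 in 20 of the 130 tested miRNAs, and their median was 43.9, though the index grows with the level of a miRNA. The CV of lsy-6 was number 32 in order, lowest first, among the 130, with a median CV of 29.3%. Without U9G replicate B, the CV of lsy-6 was 21.1% and number 60 in order. In that library lsy-6 itself, at 35.1 CPM, lay between the other U9G libraries, and its TMM-normalised level of 39.6 CPM did so too.

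Compared with the 3 miRNAs next above it and the 3 next below it in mean level, the CV of lsy-6 was number 3 of 7 in order, lowest first, and number 4 of 7 without U9G replicate B. mir-232 (45.7 CPM) was steadier, with a CV within genotypes of 14.5% and a dispersion index of 1.98. mir-800 (36.1 CPM) was close to lsy-6, with a CV of 19.6% and an index of 2.81. mir-784 (48.4 CPM) had a CV of 34.7% and mir-2210 (38.2 CPM) a CV of 50.7%. Those of mir-784 and mir-2210 were larger at nearly the same depth. mir-243 (48.4 CPM) had a CV of 41.8% with U9G replicate B and 20.7% without it. mir-2208.2 (37.0 CPM) varied most, with a CV of 158.3% and between 1 and 551 reads per library. The highest CPM of lsy-6 was 2.34 times its lowest, and that of mir-2208.2 was 1413 times its lowest.

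**Figure D3:**
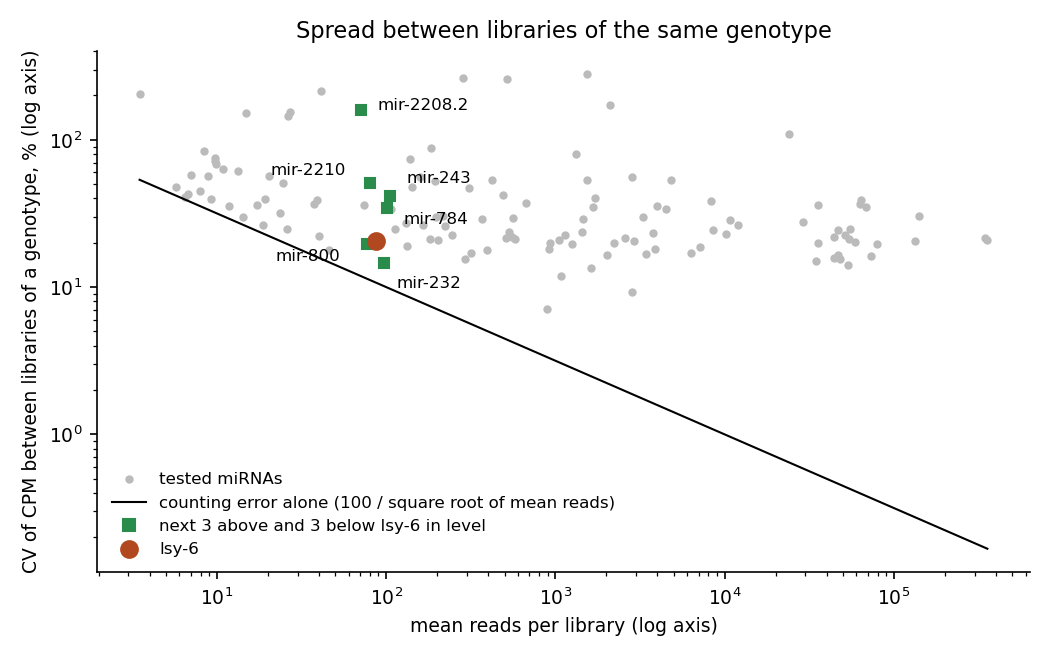
CV of CPM between libraries of the same genotype, in percent, against mean reads per library, both on log axes, for the 130 tested miRNAs with lsy-6 and its 6 neighbours in level marked. The line is counting error alone. lsy-6 (CV 20.6%) lies above the line and close to mir-800 (19.6%) and mir-232 (14.5%).

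Each mutant was then set against wild type, the contrast that the design gives for each mutant strain. For mutants labelled with mnDp1, it may hold the duplication as well as the base change in let-7a, because wild type is not so labelled. These strains are labelled +/+ for mnDp1, and whether the animals carried the duplication was not tested. lsy-6 did not pass the threshold in any of the 14 mutants by edgeR's quasi-likelihood test (adjusted p under 0.05), and 0 of the 14 had an unadjusted p under 0.05. The DESeq2 Wald test also gave 0 of 14. Over the same 14 comparisons, 1.43% of all tests were past the threshold, or 1.65% without U9G replicate B. By mutant this share was 9.23% in U9G, 3.85% in A10U, 1.54% in G11U, G12U and U18A, 0.769% in G15A, A19U and G20C, and 0% in the others. The share in U9G rested on its replicate B: without that library 0 of 134 tested miRNAs were past the threshold in U9G, and in the other mutants the share was 5.22% in A10U, 4.48% in G11U, 3.73% in G15A, 2.99% in G12U and U18A, 1.49% in A19U and U22A, 0.746% in G20C and 0% in the rest. The log2 fold changes of lsy-6 lay between -0.15 in G12U and 0.27 in G15A, with 10 above 0 and 4 below 0, and edgeR adjusted p-values lay between 0.756 and 0.9996. In no mutant were all 3 libraries above, or all below, those of wild type. Of the 42 mutant libraries, 13 lay above all of wild type, 29 within its range and 0 below it.

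The size of change that these data leave possible is given by the 95% intervals. Their bounds ran from 0.644-fold to 1.675-fold over the 14 mutants, so that each interval lay inside a 2-fold change in either direction. The standard error of a log2 fold change was between 0.235 and 0.237. G15A had the largest value, 0.27 (SE 0.236, 95% interval -0.21 to 0.74, edgeR adjusted p = 0.756). A19U followed at 0.23 (95% interval -0.25 to 0.71, edgeR adjusted p = 0.972), then U18A and U13A at 0.20 each. G12U had the lowest, -0.15 (95% interval -0.63 to 0.33, edgeR adjusted p = 0.997). A10U, G20C and U16G stood at -0.09, -0.08 and -0.08. G11U, U22A and U9G, at 0.0001, 0.02 and 0.02, were close to 0. U21A, A17U and U14A stood at 0.13, 0.14 and 0.10. The direction of many of these values depended on which wild-type library was left out. Without wild type replicate A, 12 of the 14 values were below 0 and 2 above, between -0.35 and 0.10, and 8 had changed sign. Without wild type replicate B, 13 were above 0 and 1 below, between -0.02 and 0.43, and 3 had changed sign. Without wild type replicate C, 12 were above 0 and 2 below, between -0.11 and 0.34, and 2 had changed sign. In each case 0 of 14 were past the edgeR threshold.

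**Figure D4:**
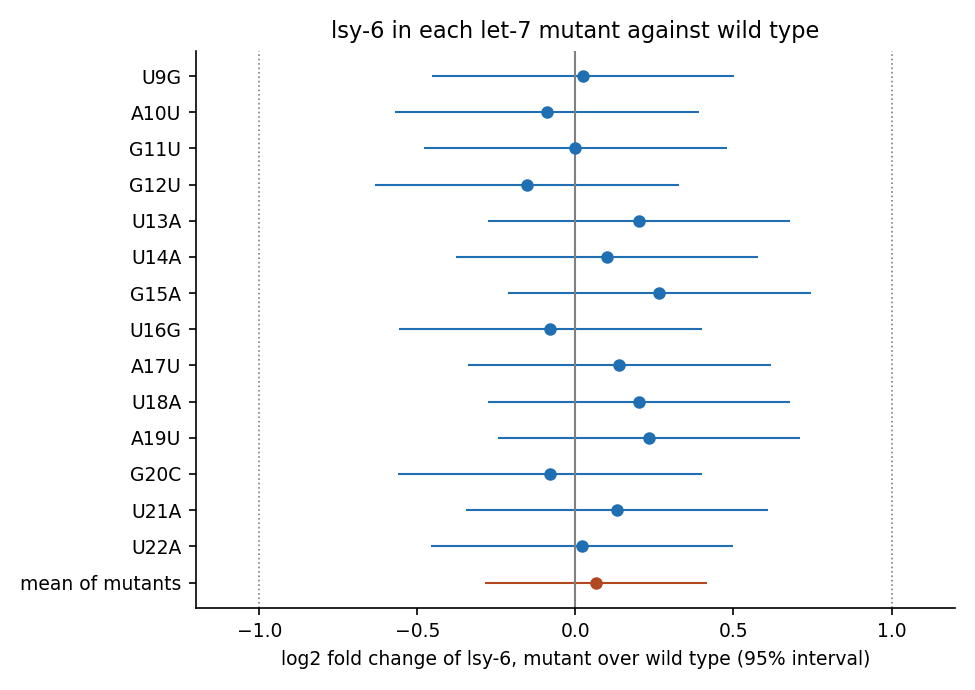
Log2 fold change of lsy-6 in each mutant over wild type, with 95% intervals, and for the mean of the 14 mutants in the last row. The dotted lines mark a 2-fold change. All 14 values lie between -0.15 and 0.27 and all intervals include 0.

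The mean of the 14 mutants differed from wild type by 0.07 on the log2 scale (SE 0.173, 95% interval -0.29 to 0.42, edgeR adjusted p = 0.996), where 0% of tested miRNAs were past the threshold. On the fold scale this interval ran from 0.82 to 1.34. Without wild type replicate A the difference was -0.12 (edgeR adjusted p = 0.989). Across the 15 genotypes lsy-6 was not past the threshold (edgeR F-test, adjusted p = 0.988), while 15.4% of tested miRNAs were. Among the 14 mutants alone its adjusted p was 0.957 by the same test, while 16.2% passed. The SD of the 15 genotype means was 4.90 CPM. The spread between libraries of a genotype, 8.46 CPM, gives 4.88 CPM for means of 3 libraries. That spread includes the difference between replicate letters A, B and C (means of 36.5, 39.6 and 47.0 CPM), which all genotype means share. The 4.88 CPM is therefore too large a yardstick, and a value without the letter was not computed. With the letter as a block, the edgeR F-test across the 15 genotypes gave an adjusted p of 0.7235.

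In the order of mean CPM, the genotypes were G15A, A19U, U18A, U13A, U14A, U21A, A17U, G11U, U22A, U9G, wild type, U16G, A10U, G20C and G12U. The highest mean was 1.54 times the lowest. The ranges of all 14 pairs of neighbours in this order overlapped, and in 12 pairs the means differed by less than the smaller SD of the pair. The other pairs were G11U with U22A and U22A with U9G, in which U22A had an SD of only 0.820 CPM.

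mnDp1 is carried on chromosome V, the chromosome of lsy-6, and the label was therefore compared. The label falls on the mutants at positions 11 to 16 and on no others, so label and changed position cannot be told apart. Strain means were 41.9 ± 6.09 CPM (SD, n = 6 strains) with the label and 40.8 ± 4.42 CPM (SD, n = 8 strains) without it. The ranges overlapped, at 33.3 to 51.2 CPM with the label and 34.3 to 47.1 CPM without it. The difference of 1.12 CPM had an exact two-sided permutation p of 0.692 over 3003 splits. On strain sums, the log2 difference by edgeR was -0.01 (SE 0.0966, edgeR adjusted p = 0.948), where 0% of 137 tested miRNAs passed the threshold. The sign thus differed between settings. It was positive for CPM and for edgeR with total counts only, and negative with TMM or with DESeq2 size factors. With TMM it turned positive when let-7 counts were removed.

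lsy-6 was set beside a list of miRNAs known from restricted cells. Levels are CPM with no scaling by length, since mature miRNAs are of nearly one length. mir-791, which acts in a few carbon dioxide sensing neurons, was the nearest of the list, at a mean of 53.9 CPM. The ratio of lsy-6 to mir-791 had a median of 0.776 over the 45 libraries. It ranged between 0.447 and 4.0, and the highest ratio was that of U9G replicate B, where mir-791 stood at 8.77 CPM. mir-247, known from distal tip cells, averaged 234.1 CPM. mir-246, known from the gonadal sheath, averaged 5086 CPM, and mir-57, known from posterior cells, 22620 CPM. lsy-6 thus had the lowest mean of the listed miRNAs with reads.

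The genotype means of mir-791 ranged more widely than those of lsy-6. Mutant means of mir-791 lay between 41.8 CPM in G20C and 103.5 CPM in G15A, against 45.0 ± 14.5 CPM in wild type (SD, n = 3). Its log2 fold change in G15A was 1.03 (edgeR adjusted p = 0.147), and 1.05 without U9G replicate B (edgeR adjusted p = 0.00303). In G15A the log2 fold change of lsy-6 was 0.27, and 0.29 without that library (edgeR adjusted p = 0.534). Whether the values of these miRNAs differ was not tested. None of mir-247, mir-246 and mir-57 was past the threshold in any mutant by edgeR, with or without that library.

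The other members of the list, mir-124 of sensory neurons, mir-273, once placed in the ASE switch, and mir-1 of muscle, were listed at 0 in all 45 libraries. mir-1 is known to be abundant in worms, so a listed 0 is not read here as absence. Each of the 3 overlaps another gene of the WBcel235 annotation, mir-1 on the opposite strand and the others on their own strand, whereas lsy-6 overlaps none. Among the 61 genes at 0 in all libraries, 50 overlap another gene on either strand, as do 102 of the 196 genes with reads. Overlaps on the same strand were 25 of 61 and 78 of 196. Whether an overlap bears on a listed 0 was not tested.

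**Figure D5:**
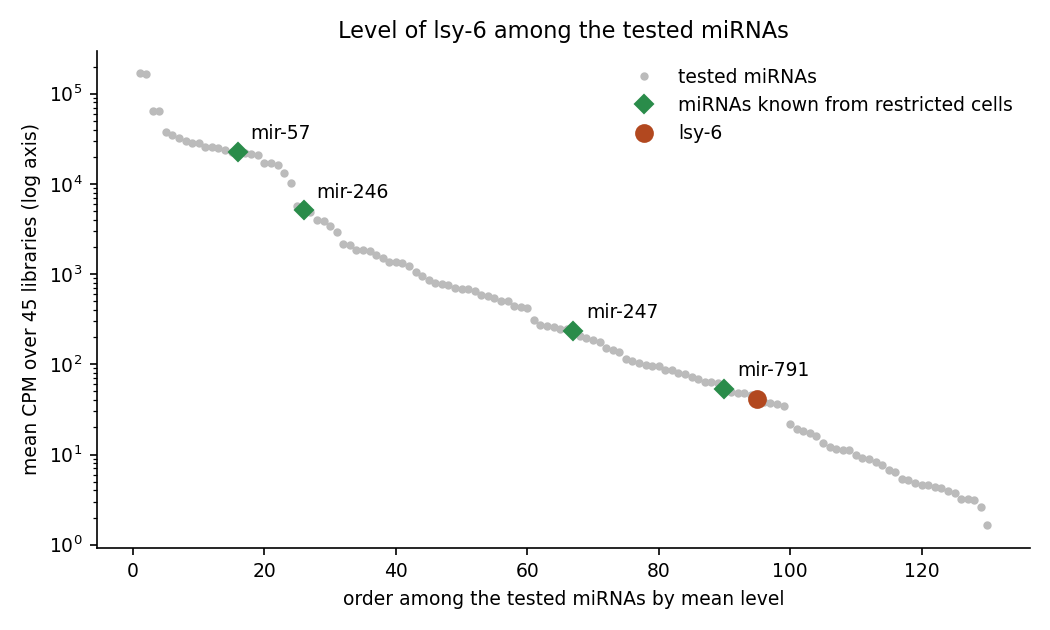
Mean CPM over 45 libraries, on a log axis, of the 130 tested miRNAs in order of level, with lsy-6 and the miRNAs known from restricted cells marked. Among the marked miRNAs, lsy-6, at 41.0 CPM, is nearest to mir-791 at 53.9 CPM and far below mir-57 at 22620 CPM.

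The miRNAs whose pattern over the genotypes was most like that of lsy-6 were mir-232, mir-797 and mir-247. Over the 15 genotype means of log2 normalised CPM, their Pearson correlations with lsy-6 were 0.72, 0.62 and 0.59, given as a description. Without U9G replicate B, mir-797 (0.722) and mir-232 (0.722) remained the nearest, while mir-247 was number 4 (0.54), behind mir-72 (0.56), which is named here after its value was seen. Among 129 miRNAs compared, 5 had a correlation over 0.5 and the median was -0.003. The genotype means of lsy-6 span only 0.41 on the log2 scale, between G12U and G15A, and all points share the libraries and their scaling. Over the 45 libraries the correlations were 0.48, 0.46 and 0.38. mir-232 and mir-247 were also highest in G15A, while mir-797 was highest in U9G.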

How the data were processed

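Small RNA libraries of 15 genotypes with 3 replicates each were analysed from the read counts that the authors deposited per miRNA gene. A second deposited table gives counts of all, mapped, miRNA and let-7 reads per library, and let-7 values per 1000000 miRNA reads, which are a score made by the authors per the file headers and were not used. Per the submitters' processing notes, cutadapt 1.9, Bowtie2 2.3.4.3, Subread 1.6.2 and featureCounts were named. The genome build and the strand setting are not given in the sources used here. lsy-6 was located by its gene identifier in the WBcel235 annotation.

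CPM is the count per 1000000 summed miRNA counts. The deposited mapped reads of U9G replicate C repeat those of U9G replicate A and were not used for it. For tests, the let-7 row was replaced by the count of the form that the genotype encodes. All 45 libraries entered 1 fit with edgeR 4.0.16 in R 4.3.3 (TMM, factors 0.887 to 1.13, filterByExpr, quasi-likelihood test), with Benjamini-Hochberg adjustment over all 130 miRNAs and a threshold of 0.05. Intervals of fold changes use the fit's information matrix and quasi-dispersion. DESeq2 1.42.0 was an alternative. The edgeR step was tested on simulated data in which other miRNAs were changed and lsy-6 was not. That run does not measure how small a change of lsy-6 could be found.

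The members and lists were chosen with earlier results of these data known. Named miRNAs are lsy-6, its 3 neighbours above and below in mean CPM, the 3 most like it over genotype means (log2 CPM, prior count 2), and the list of restricted miRNAs. miRNAs that share its seed were to be named too, but were not analysed here. The replicate letter was examined after the data were seen.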

Additional observations from a re-analysis of the deposited data

How the results depend on the processing

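lsy-6 was past the threshold in 0 mutants under every alternative run. With total counts only, the log2 fold changes of the 14 mutants lay between -0.18 in G12U and 0.41 in G15A. G15A had 0.27 and G11U 0.0001 with TMM, and G11U had 0.12 with total counts only. Of 140 values for a mutant under another setting, 128 kept their direction, and of 97 values without 1 library, 78 did. Values that changed sign under another setting were as follows. U9G was -0.00137 with total counts only, -0.00287 in a fit of only the 6 libraries compared and -0.0445 with the other 13 mutants as reference. G11U was -0.0146 with the replicate letter as a block, -0.0191 without any let-7 count, -0.00286 with let-7 as deposited, -0.0462 in the fit of 6 libraries and -0.0703 with the other mutants as reference. U22A was -0.0288 with let-7 left out and -0.0467 with the other mutants as reference. Without a filter, U16G was 0.0028 and G20C 0.0162. The label mnDp1 gave 0.0278 with total counts only, 0.00512 with let-7 left out and 0.0391 from strain means of CPM. The cause of these sign changes was not tested. Over the 14 mutants, 26 tests passed the threshold, 2 in fits of 6 libraries and 68 with the other mutants as reference. The count was between 14 and 51 when 1 library was left out, with 14 without wild type B or wild type C, 51 without U9G C and 44 without U9G A. The mean level was 20.3 per 1000000 of all reads, 33.7 per 1000000 mapped reads over 44 libraries and 41.2 CPM without U9G B. Leaving out 1 library at a time gave log2 ranges of -0.18 to 0.15 in U9G, -0.31 to 0.0241 in A10U, -0.23 to 0.21 in G11U, -0.35 to -0.0189 in G12U, -0.0268 to 0.30 in U13A, -0.0634 to 0.30 in U14A, 0.0963 to 0.43 in G15A and -0.24 to 0.0862 in U16G. They were -0.0271 to 0.30 in A17U, -0.0203 to 0.31 in U18A, 0.0428 to 0.37 in A19U, -0.21 to 0.12 in G20C, -0.0266 to 0.30 in U21A and -0.15 to 0.18 in U22A. The mean of the mutants ranged from -0.12 to 0.21, the mnDp1 contrast from -0.0613 to 0.0127, and the edgeR adjusted p across genotypes from 0.910 to 0.999 and among mutants from 0.892 to 0.998. Same-letter libraries deviated together on average (mean r = 0.235 over 315 pairs), though single pairs went down to r = -0.431. Libraries thus shared variation by letter, and the main fit did not include the letter. What a letter stands for is not given in the labels. With the letter as a replicate block, lsy-6 changes lay between -0.15 and 0.27, with 0 of 14 past the threshold, and 38 of 45 libraries correlated best with their own letter. Depth limits single libraries to a counting error of at least 16.8% of the level.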

Other observations

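The level of lsy-6 differed by replicate letter, a comparison chosen after the data were seen. Replicate C averaged 47.0 ± 6.34 CPM, replicate B 39.6 ± 7.21 CPM and replicate A 36.5 ± 8.45 CPM (SD, n = 15 genotypes each). Replicate C was the highest of its genotype in 10 of 15 genotypes, and replicate A the lowest in 10. In a fit with genotype and letter, the log2 difference was 0.31 for C over A and 0.16 for B over A, with an edgeR adjusted p of 0.0281 for the letter. The same test called 33.1% of the tested miRNAs, so lsy-6 was among many, and 51.5% without U9G replicate B (69 of 134, against 43 of 130), where the edgeR adjusted p of lsy-6 was 0.0208. Leaving out 1 library at a time gave edgeR adjusted p-values between 0.0146 and 0.0740, and the call was lost in 18 of 45 cases. The median share of mapped reads that were miRNA reads was 80.3% in C, 85.5% in B and 84.8% in A. The labels do not say that a letter marks a batch, and the part of that share in the difference was not tested.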
